A study of Mus musculus with 8 samples.

Results

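The respiratory chain genes described here are 110 of the 21899 genes in the deposited table. They are every gene listed on the mitochondrial chromosome (13) and every nuclear gene whose symbol begins with the stem of a subunit of complexes I to V (97). The stems were Nduf followed by a, b, c, s or v, Sdha to Sdhd, Uqcr, Cox4 to Cox8, and Atp5. The mitochondrial genes encode 7 subunits of complex I, 1 of complex III, 3 of complex IV and 2 of complex V. The nuclear genes comprise 38 genes of complex I, 4 of complex II, 8 of complex III, 20 of complex IV and 18 of complex V. The stem Ndufa also took in 8 assembly factors of complex I (Ndufaf1 to Ndufaf8), and the stem Cox5 took in the pseudogene Cox5b-ps. Ndufa4 and Ndufa4l2 were placed with complex IV, where the Ndufa4 protein resides.

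The RNA came from mouse livers taken 8 h after ConA (concanavalin A), a lectin from jack beans whose injection sets off a T cell driven hepatitis. The 8 libraries fell into 2 groups of 4, P2X4R-deficient and wild type, and both groups received ConA. P2X4R, the product of P2rx4, is a cation channel that extracellular ATP opens. The sample labels give the deficient genotype as a P2X4R knockdown, whereas the design text writes P2X4R-/-, and the sources used here name no strain, age or sex. No untreated liver was analysed here, so the values describe livers under ConA. The labels do not say that the 4 libraries of a group came from separate animals, and p-values measure the spread between these libraries, which may be technical.

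The respiratory chain passes electrons from NADH (complex I) and succinate (complex II) through ubiquinone, complex III and cytochrome c to oxygen (complex IV), and complex V makes ATP from the proton gradient that results. Complexes I, III, IV and V are built from subunits of both genomes, and complex II from nuclear genes alone. The mitochondrial genes are transcribed from the circular chromosome as long precursors that are cut at the transfer RNAs between them. Most nuclear subunit genes are transcribed separately from housekeeping promoters. Hepatocytes hold many mitochondria and supply most of the RNA of liver tissue. In bulk tissue, fewer cells of a type and less RNA per cell cannot be told apart.

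Copies of mitochondrial DNA lie in the nuclear chromosomes, and a read that matches both places equally well has no unique position. The share of 50-base words that a gene has in common with another annotated gene (GENCODE M21, mouse build GRCm38) was therefore determined for each member. It was 98.0% for mt-Nd3, 98.8% for mt-Nd4l, 99.5% for mt-Atp6, 99.9% for mt-Co3 and 100% for mt-Co2. It was 62.2% for mt-Nd4, 51.1% for mt-Co1, 8.19% for mt-Nd2 and 7.61% for mt-Nd5, and 0 for mt-Nd1, mt-Nd6, mt-Cytb and mt-Atp8. The partners of the 5 genes above 90% are unprocessed pseudogenes that lie side by side on the minus strand of chromosome 1, from Gm10222, which starts at 24612407, to Gm28661, which ends at 24615565. None of these copies is a row of the deposited table. The mitochondrial genes are listed there with the same start and end as in GENCODE M21, for 13 of 13 genes. This match covers chromosome MT only, and nuclear positions can differ from GRCm38. Uqcrc1, for example, is listed on chromosome 9 from 108765701 to 108778691, whereas its start in GRCm38.p6 lies within 108936398 to 108936697.

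The pair mt-Nd3 (MT, 9459 to 9806, plus strand) and Gm28438 (chromosome 1, 24612775 to 24613119, minus strand) shows how close the copies are. Over 345 aligned bases they differed at 1 base, T3C, with the mitochondrial base first and positions counted from 1 at the 5′ end. The first 120 bases of each are given 5′ to 3′ in the sense of the transcript, with that base in capitals.
mt-Nd3: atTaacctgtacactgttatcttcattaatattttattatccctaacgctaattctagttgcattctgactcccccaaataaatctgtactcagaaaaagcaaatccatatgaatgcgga
Gm28438: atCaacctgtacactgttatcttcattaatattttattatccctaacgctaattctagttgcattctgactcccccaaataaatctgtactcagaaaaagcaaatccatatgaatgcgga
The first 294 bases of mt-Nd4l (MT, 9877 to 10173, plus strand) were identical to Gm10222. The bases beyond the copy are in capitals.
mt-Nd4l: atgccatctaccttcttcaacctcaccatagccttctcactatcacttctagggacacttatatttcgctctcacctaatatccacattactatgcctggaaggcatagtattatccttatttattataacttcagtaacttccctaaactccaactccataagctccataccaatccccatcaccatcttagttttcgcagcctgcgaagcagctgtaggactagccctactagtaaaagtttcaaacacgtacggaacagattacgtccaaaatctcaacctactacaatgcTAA
The gene mt-Atp8 (MT, 7766 to 7969, plus strand) shared no 50-base word with another annotated gene. The words compared were those of annotated transcripts, and sequence of chromosome 1 between the annotated copies was not searched. Its last 43 bases are also the start of mt-Atp6, given in capitals, so a read there belongs to both genes.
mt-Atp8: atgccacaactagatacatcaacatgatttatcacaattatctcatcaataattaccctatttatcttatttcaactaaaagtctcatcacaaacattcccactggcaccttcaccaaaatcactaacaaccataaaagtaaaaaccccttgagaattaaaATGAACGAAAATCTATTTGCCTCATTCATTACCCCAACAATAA

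Library totals ran from 15445285 to 16604190 reads. The targeted gene P2rx4 had 286, 401, 467 and 516 reads in the 4 deficient libraries and 692, 888, 906 and 898 in the wild type libraries. That was 24.7 ± 5.33 against 55.9 ± 8.31 CPM (mean ± SD, n = 4), where CPM is the read count scaled to a common library total with edgeR's TMM factors. The groups did not overlap (log2 fold change -1.18, SE 0.19, edgeR adjusted p = 0.00481). The exact two-sided permutation p was 0.0286, the smallest that 70 assignments of libraries to groups can give. Reads were counted over the whole gene, so these counts do not show which part of it is altered. Log2 fold changes are deficient over wild type throughout. The hepatocyte markers Alb, Apoa1, Ttr, Serpina1a, Cyp2e1, Cps1, Ass1, Tat, Hnf4a and Apob were all present, with none at 0. Their summed level was 76638 to 104817 CPM in deficient livers and 112783 to 125993 CPM in wild type livers, and the groups did not overlap. Most of these sums was Alb alone, at 55473 to 79131 CPM and 84759 to 96659 CPM.

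The 13 mitochondrial genes took up a share of the reads that varied more between libraries of 1 genotype than between genotypes. In the deficient libraries 1 to 4 the share was 10.5%, 5.94%, 3.81% and 6.002%. In the wild type libraries 1 to 4 it was 10.1%, 6.66%, 5.18% and 4.76%. The group means were 6.57% ± 2.82 and 6.69% ± 2.44 (SD, n = 4), and the highest library stood 2.76 times above the lowest, with both in the deficient group. Library 1 was the highest of each group. The difference between the group means, deficient minus wild type, was -0.12 percentage points. It was 1.03 without wild type library 1 and -1.43 without deficient library 1. It was also above 0 without deficient library 2 (0.09), 3 (0.80) or 4 (0.07), so its sign rested on single libraries.

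The 97 nuclear members together took up fewer reads and varied less. Their share was 0.935%, 0.765%, 0.810% and 0.8285% in the deficient libraries and 1.03%, 0.772%, 0.821% and 0.776% in the wild type libraries. Library 1 was again the highest of each group, at 1.35 times the lowest library for wild type library 1. Reads of mitochondrial genes per read of a nuclear member were 11.2, 7.77, 4.71 and 7.25 in the deficient and 9.82, 8.64, 6.30 and 6.14 in the wild type libraries. The means of that ratio were 7.74 ± 2.69 and 7.73 ± 1.80.

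**Figure D1:**
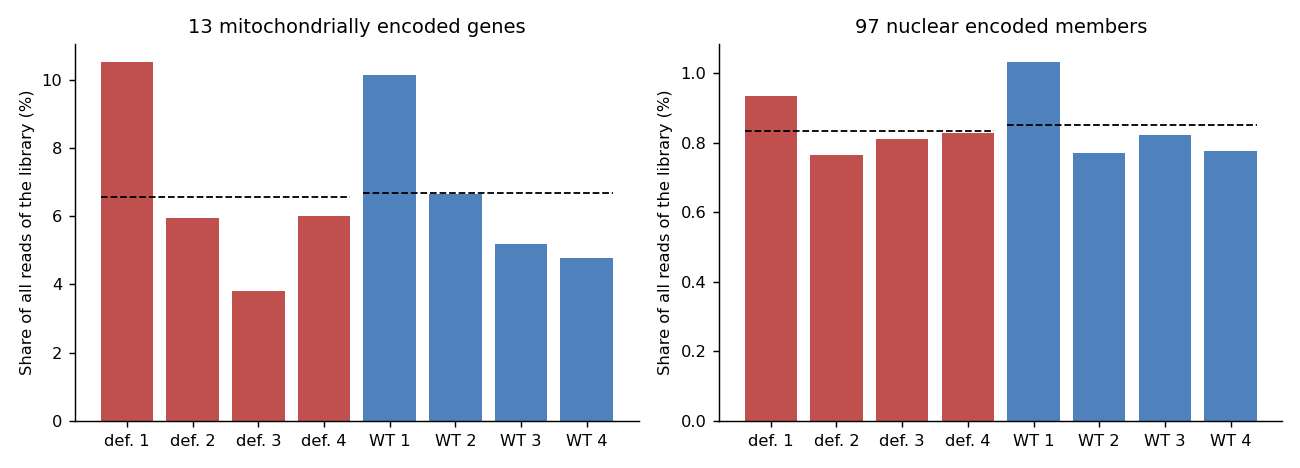
Share of all reads of each library (%) in the 13 mitochondrially encoded genes (left) and the 97 nuclear encoded members (right). Bars are single libraries, red for P2X4R-deficient (def.) and blue for wild type (WT), and dashed lines are group means: libraries 1 are the highest of both groups, and the mitochondrial means of 6.57% and 6.69% lie far inside the range of the libraries.

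Levels of the mitochondrial genes spanned several orders of magnitude, although they are cut from shared precursors. Compared per length as FPKM (reads scaled to gene length and library total), mt-Co1, the catalytic subunit of complex IV, was the highest at 22118 ± 9149 in deficient livers and 22737 ± 8553 in wild type livers. It was followed by mt-Cytb, the cytochrome b of complex III, at 10661 ± 4697 and 10528 ± 4762. These 2 genes held 68.5% to 73.0% of the mitochondrial reads of a library, and mt-Co1 alone 51.0% to 54.2%.

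Among the complex I genes, mt-Nd1 stood at 6341 ± 3112 FPKM in deficient livers and 6351 ± 1482 in wild type livers. Next came mt-Nd4 (3615 ± 1722 and 3390 ± 1150), mt-Nd2 (3511 ± 1674 and 3718 ± 1005) and mt-Nd5 (2199.9 ± 854 and 2465 ± 933). Compared within each library, mt-Nd4 was above mt-Nd2 in 3 of 8 libraries, and both were above mt-Nd5 in 8 of 8. The gene mt-Nd6, the only one encoded on the other strand, was lower at 416 ± 220 and 408 ± 102. In mammals its transcript is known to lack the poly(A) tail on which these libraries were selected.

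The 5 genes with near-complete nuclear copies had the lowest mean levels apart from mt-Atp8. Complex IV subunits mt-Co2 and mt-Co3 stood at 338 ± 144 and 134 ± 56.9 FPKM in deficient livers and 295 ± 130 and 134.0 ± 48.8 in wild type livers. The level of mt-Co2 was below that of mt-Nd6 in 7 of 8 libraries and above it in deficient library 4 (342 and 296 FPKM). The proton channel subunit mt-Atp6 stood at 68.5 ± 33.1 and 65.4 ± 19.5. The complex I subunits mt-Nd3 and mt-Nd4l stood at 6.61 ± 4.45 and 6.97 ± 1.83 in deficient livers and 5.25 ± 2.04 and 7.49 ± 5.65 in wild type livers. In reads, mt-Nd3 had 68, 31, 11 and 36 in the deficient and 33, 42, 19 and 22 in the wild type libraries. Together the 5 genes held 0.482% to 0.673% of the mitochondrial reads. They are neighbours on the map, with mt-Atp8 among them, and the genes on both sides of this stretch, mt-Co1 and mt-Nd4, are shared in part and stand far higher. How reads with several positions were handled is not stated by the sources used here, and its part in these levels was not tested. The gene mt-Atp8, which is 204 bases long, had 1 read in each of wild type libraries 1 and 3 and 0 in the other 6 libraries, a floor at which no level can be compared.

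**Figure D2:**
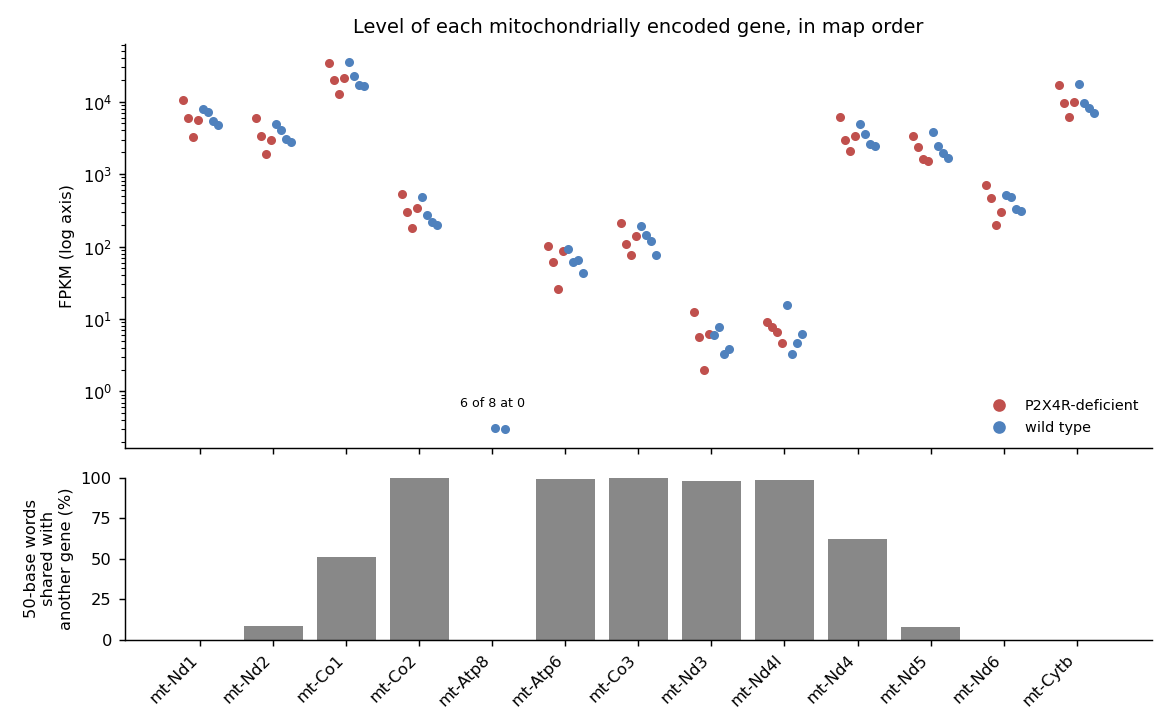
Upper panel, FPKM (log axis) of each mitochondrially encoded gene in map order, with a point for each library (red P2X4R-deficient, blue wild type). Lower panel, percentage of its 50-base words found in another annotated gene: mt-Co2, mt-Atp6, mt-Co3, mt-Nd3 and mt-Nd4l, all at 98.0% or more, have lower mean levels than the other genes with reads in every library (mt-Co2 is above mt-Nd6 in deficient library 4), and mt-Atp8 was at 0 in 6 of 8 libraries.

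Mitochondrial transcripts did not pass the test between genotypes. Of the 12 mitochondrial genes tested, 0 passed an adjusted p of 0.05 and 0 had an unadjusted p under 0.05 in edgeR's quasi-likelihood test, and DESeq2 called 0 and found 0 at that unadjusted threshold. Over all 11380 genes tested, 19.9% were called, 9.27% higher and 10.6% lower in the deficient group (1055 and 1209 genes, which became 1731 and 843 when scaled by library size alone). Log2 fold changes ran from -0.30 (mt-Nd5) to 0.18 (mt-Nd3), with a median of -0.13. The 95% interval of a mitochondrial gene reached a median of 0.69 log2 units to each side, against 0.43 for a nuclear member. For mt-Co1 the fitted level in deficient livers was 88.5% of wild type, with an interval of 56.6% to 138%. For mt-Cytb it was 92.2% (56.6% to 150%) and for mt-Nd1 90.3% (57.3% to 142%). Intervals lay within a 2-fold change in either direction for 10 of the 12 genes, the exceptions being mt-Nd3 and mt-Nd4l. The median depended on single libraries. It was -0.43 without deficient library 1 and 0.08 without deficient library 3, and 0.01 with scaling by library size alone.

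The mitochondrial genes varied together from library to library. Of the 12 with reads in every library, 10 had deficient library 1 and wild type library 1 as their 2 highest, and 10 had deficient library 3 as their lowest. For mt-Co1 the 4 deficient libraries stood at 50031, 30326, 18511 and 31034 CPM and the 4 wild type libraries at 53987, 37706, 28724 and 26438 CPM. For mt-Cytb they stood at 18377, 10811, 6469 and 10696 CPM and at 19973, 12095, 10012 and 8181 CPM. Within each group library 1 was the highest for both genes, and the ranges of the groups overlapped. Deficient library 3 lay below each wild type library and wild type library 1 above each deficient library.

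The median level per length of the tested nuclear members was 36.3 FPKM, against 1372 for the tested mitochondrial genes and 2.67 for all genes tested. The genes of the 2 genomes overlapped in level: 6 of 13 mitochondrial genes were above the highest nuclear member, and mt-Nd3 and mt-Nd4l were below the nuclear median. By complex, the median of the tested genes was 30.9 FPKM in complex I, 66.2 in complex II, 101 in complex III, 108 in complex IV and 45.9 in complex V, and 2.77 for the complex I assembly factors. The highest were Cox6a1 at 480 ± 35.8 FPKM in deficient livers and 433 ± 16.4 in wild type livers, Atp5a1 at 238 ± 17.5 and 256 ± 12.7, Cox8a at 249.5 ± 24.2 and 233 ± 27.1, and Atp5b at 199 ± 21.9 and 224 ± 18.5. Atp5a1 and Atp5b encode the alpha and beta subunits of the catalytic head of ATP synthase. The highest of complex I were Ndufa2 (95.2 ± 21.1 and 70.4 ± 11.7 FPKM) and Ndufa1 (78.8 ± 13.1 and 74.9 ± 12.0), and the highest of complex III were Uqcr10 (144 ± 22.2 and 144 ± 69.8) and Uqcrq (143 ± 22.0 and 141 ± 55.1). A few obligatory subunits were listed near 0. The row of Ndufb2 (1 to 11 reads a library) and the row of Atp5o with reads (4 to 21 reads) are 2 such cases, the second with 41.6% of its 50-base words in another gene. For Ndufb2 that share was 5.52%. The sources used here do not say how reads of shared sequence were counted, and its part in these low counts was not tested.

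Of genes with tissue-specific isoforms, the forms known from liver were the abundant ones. Cox4i1 (137 ± 26.7 and 122 ± 29.5 FPKM), Cox6a1, Cox6b1 (159.9 ± 42.8 and 157 ± 44.1), Cox7a2 (99.2 ± 13.03 and 102 ± 42.99), Cox7b (107 ± 12.0 and 124 ± 69.9) and Cox8a were abundant. Cox7a2l, which joins complexes III and IV in supercomplexes, stood at 54.1 ± 7.62 and 54.0 ± 5.35 FPKM. The muscle forms Cox6a2, Cox7a1 and Cox8b reached at most 1, 17 and 2 reads in a library, the testis forms Cox6b2, Cox7b2 and Cox8c at most 5, 0 and 0. Of the 3 genes for the same mature subunit c of ATP synthase, Atp5g3 was the highest at 102 ± 20.8 and 97.3 ± 11.4 FPKM. Atp5g2 stood at 30.9 ± 4.90 and 29.3 ± 0.537, and Atp5g1 at 27.6 ± 5.99 and 24.3 ± 2.999. Within each library the FPKM of Atp5g2 was above that of Atp5g1 in 8 of 8. In CPM, which is not divided by gene length, the order was the reverse, with means over 8 libraries of 50.4 for Atp5g2 and 127 for Atp5g1. The order thus depends on the lengths listed for them, 1675 and 4912 bases. Ndufa4 stood at 117 ± 27.4 and 122 ± 45 FPKM, and its relative Ndufa4l2, known as a hypoxia-induced gene, at 4.77 ± 1.69 and 3.06 ± 1.04 (log2 fold change 0.49, adjusted p = 0.293).

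**Figure D3:**
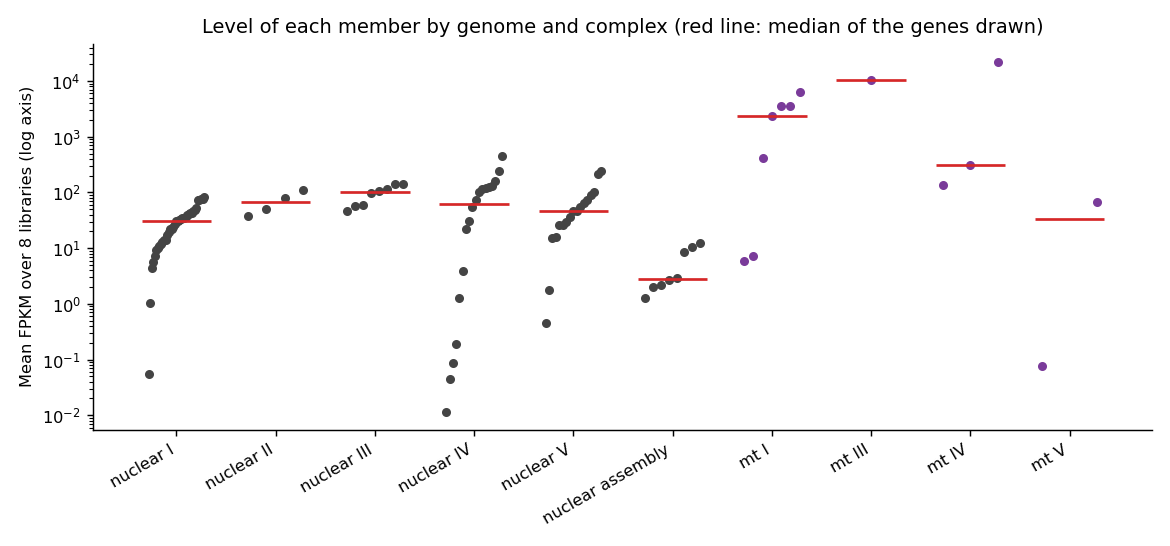
Mean FPKM over 8 libraries (log axis) of each member except the pseudogene Cox5b-ps, by genome and complex. Points are genes, red lines the median of the genes drawn, and 4 nuclear members without reads are not drawn: the highest nuclear member is Cox6a1 of complex IV, and the assembly factors have a median of 2.77.

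Between the genotypes, 1 of 88 tested nuclear members passed the threshold. It was Uqcrc2, a core protein of complex III, which was lower in deficient livers. The table lists it as ENSMUSG00000030884 on chromosome 7, 120234399 to 120258747, on a build not stated, and 17.6% of its 50-base words occur in another annotated gene. The CPM of Uqcrc2 was 105, 139.9, 122 and 122 in the deficient libraries and 179, 159, 194 and 169 in the wild type libraries. Each deficient library lay below each wild type library (122 ± 14.2 against 175 ± 15.0 CPM, n = 4). The log2 fold change was -0.52 (SE 0.15, adjusted p = 0.031), or 69.8% of wild type with an interval of 55.7% to 87.3%. The call was lost with scaling by library size alone (adjusted p = 0.0753), with limma on log2(FPKM + 0.1) (0.0808), with no expression filter (0.0565), with the replicate number as a block (0.0665), without both libraries 1 (0.0756), and when deficient library 1, 3 or 4 or wild type library 3 or 4 was left out. Its groups also did not overlap when scaled by library size.

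No nuclear member passed in the other direction, and the counts of calls lay below the shares over all genes of 9.27% higher and 10.6% lower. At an unadjusted p under 0.05, 1 was higher (Ndufaf8) and 5 were lower (Uqcrc2, Ndufs1, Ndufa9, Sdhd and Atp5c1), against 35.2% of all genes, 17.2% higher and 18.0% lower. DESeq2 called 2 lower, Uqcrc2 and Atp5c1 (adjusted p = 0.0329 for Atp5c1 in DESeq2). The median log2 fold change of the nuclear members was -0.11, against -0.00 over all genes, and 64 of 88 lay below 0. Scaling by library size alone raised the median of all genes to 0.14 and that of the nuclear members to 0.03, so the sign for the nuclear set flipped while it remained below that of all genes. The median also turned to 0.03 without wild type library 1. Intervals of 80 of the 88 nuclear members lay within a 2-fold change in either direction, against 6340 of the 11380 genes tested.

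**Figure D4:**
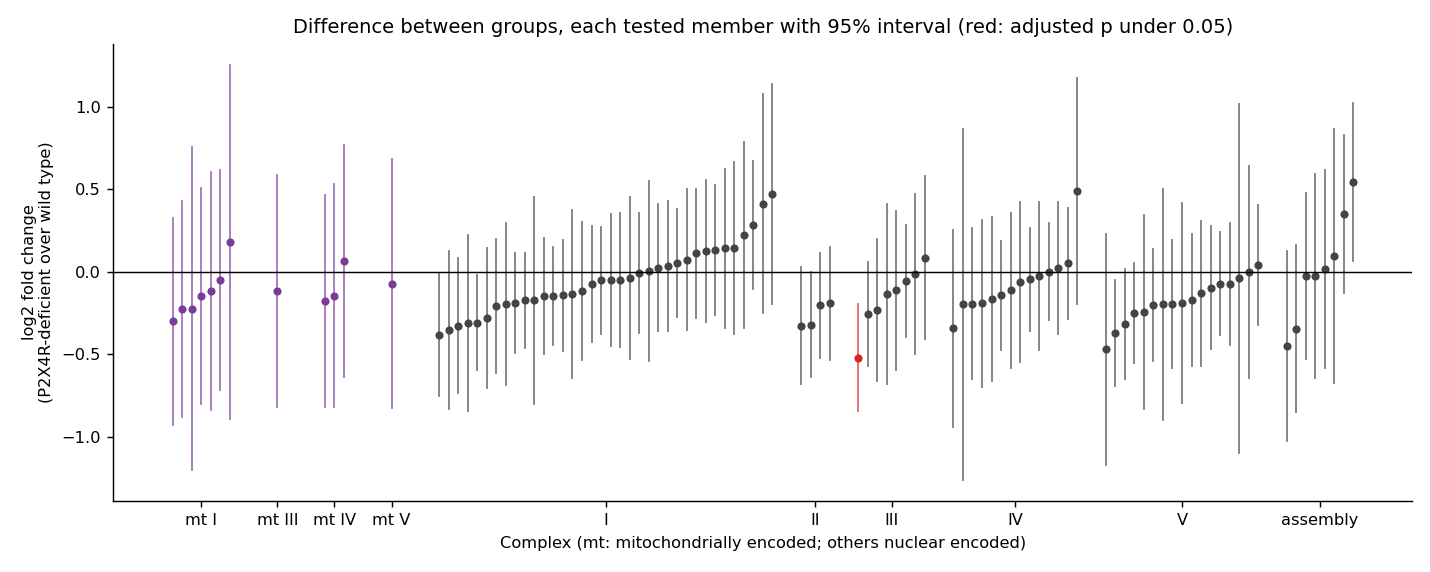
Log2 fold change, P2X4R-deficient over wild type, of each of the tested members except the pseudogene Cox5b-ps, with its 95% interval, grouped by genome and complex (mt and purple, mitochondrially encoded; grey, nuclear). The red point is Uqcrc2 at -0.52, the only member past the threshold, and the intervals of the mitochondrial genes are wider than those of most nuclear members.

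By complex, the median log2 fold change was -0.05 in nuclear complex I, -0.26 in complex II, -0.12 in complex III, -0.09 in complex IV, -0.19 in complex V and -0.00 for the assembly factors. The mitochondrial genes of the same complexes had medians of -0.15 (complex I), -0.12 (complex III), -0.14 (complex IV) and -0.07 (complex V). In complex I the 7 core subunits with catalytic centres had a median of -0.13 and the 29 tested accessory subunits of -0.05. These differences between complexes were not tested.

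Complex II, which contains no mitochondrial gene, had the lowest median. Its summed level was 663, 665, 635 and 604 CPM in the deficient libraries and 744, 753, 895 and 728 CPM in the wild type libraries, and the groups did not overlap. All 4 genes had values below 0, none past the threshold: the flavoprotein Sdha (-0.33, adjusted p = 0.178), the iron-sulfur subunit Sdhb (-0.20, 0.347), and the membrane anchors Sdhc (-0.19, 0.418) and Sdhd (-0.32, 0.138). Sdha alone held 299 ± 34.9 CPM of the sum in the deficient group and 375 ± 57.3 in the wild type group. The sum of complex V did not overlap either, with 2944, 2893, 2766 and 2837 CPM in deficient livers and 3729, 3198, 3442 and 3084 CPM in wild type libraries. Of that sum, Atp5a1 held 709.5 ± 45.5 CPM in the deficient group and 844 ± 46.1 in the wild type group. Atp5b held 803.8 ± 101 CPM and 999.9 ± 81.2 CPM. Sums of nuclear complexes I, III and IV overlapped between groups, and with scaling by library size alone the sums of complexes II and V overlapped too.

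In 8 tested nuclear members every deficient library lay below every wild type library, and in 0 the reverse, where 12.3% of all genes tested were lower and 12.7% higher without overlap. Among them were the accessory complex I subunits Ndufa9 and Ndufa10, the core proteins Uqcrc1 and Uqcrc2 of complex III, and the alpha, beta and gamma subunits of ATP synthase, Atp5a1, Atp5b and Atp5c1. The share of 8 in 88 is below the background. Of these genes only Uqcrc2 passed the test. The log2 fold change of 0 of the 8 was above 0 under any of the 18 alternatives. The 8 were picked by the order of these same libraries, so that count is no independent test of their direction. With scaling by library size alone only Uqcrc2 remained without overlap, against 7.98% of all genes lower and 18.2% higher. Atp5a1 stood at 679, 724, 767 and 668 CPM in deficient livers and 831, 832, 910.5 and 804 CPM in wild type livers (log2 fold change -0.25, adjusted p = 0.224). Atp5b stood at 683, 911, 857 and 764 CPM and at 988, 925, 1115 and 972 CPM (-0.31, adjusted p = 0.165). Atp5c1 stood at 149.7, 150.0, 128 and 164 CPM and at 210, 193, 191 and 169.7 CPM (-0.37, adjusted p = 0.0938). In each of these 3 genes the highest deficient library came close to the lowest wild type library. Ndufa9, an accessory subunit, stood at 55.7, 58.6, 58.0 and 59.5 CPM and at 70.5, 64.8, 78.9 and 72.9 CPM (-0.31, adjusted p = 0.12). The hepatocyte markers lay on the same side: 10 of 10 had a log2 fold change below 0, with a median of -0.32. The values of Hnf4a, Ass1 and Tat were small (-0.03, -0.04 and -0.04). Of the 10, 1 passed (Cps1, a mitochondrial enzyme of the urea cycle, -0.94, adjusted p = 0.022). For these counts and those of the markers below, the background is all 11380 genes tested. Of these, 10.6% passed as lower, 9.27% passed as higher and 5701 lay below 0. Markers of some other cell types differed as well. Of the tested Kupffer cell markers, 8 of 8 lay below 0 (median -0.92) and 3 passed as lower, with sums of 37.0 to 52.7 CPM in deficient and 47.9 to 159.8 CPM in wild type livers. Of the tested neutrophil markers, 0 of 7 lay below 0 (median 0.94) and 2 passed as higher, with sums of 90.4 to 175 and 26.7 to 99.1 CPM. Sums of cholangiocyte markers did not overlap, with 43.4 to 153 CPM in deficient and 194.6 to 234 CPM in wild type livers. In the wild type group most of that sum was Sox9 (36.6 ± 40.4 and 152 ± 9.03 CPM), the 1 of 5 tested cholangiocyte markers that passed, and 4 of the 5 lay below 0. No marker of these 4 lists was at 0 in all 8 libraries. Sums of endothelial, T or NK cell, stellate cell and erythroid markers overlapped between the groups, as those of Kupffer cell and neutrophil markers did. Median log2 fold changes were 0.01 for endothelial, -0.02 for T or NK cell, -0.30 for stellate cell and -1.13 for erythroid markers. Of 7 tested endothelial markers, 1 passed as higher and 1 as lower. Of the T or NK cell markers 1 of 4 passed as lower, and of the stellate cell markers 2 of 8. Of the erythroid markers 0 of 5 passed, and 5 of 5 lay below 0. The part of these cell types in the levels of the subunits was not tested.

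Ndufaf8, which acts in complex I assembly, had the highest log2 fold change of the tested nuclear members. It stood at 16.4, 8.26, 12.9 and 11.3 CPM in deficient livers and at 8.35, 9.70, 7.19 and 8.27 CPM in wild type livers, and the groups overlapped through deficient library 2. The log2 fold change was 0.54 (SE 0.22, adjusted p = 0.0973), and it passed with scaling by library size alone (0.70, adjusted p = 0.0477), with limma on log2(FPKM + 1) (0.61, 0.0475) and without deficient library 2 (0.69, 0.0343).

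Cox4i2, the isoform of subunit 4 that is enriched in lung, was read in 1 group only. It had 6, 7, 5 and 1 reads in the deficient libraries and 0 in each of the 4 wild type libraries. Against a floor of 3 reads over the wild type group, the level was 5.72-fold higher in the deficient group. That ratio leaves out the counting error of the deficient reads, so it is no lower bound. Cox4i2 did not pass the expression filter, and without that filter edgeR gave an adjusted p of 0.0283. DESeq2 gave an unadjusted p of 0.004 and no adjusted p. The level rested on 19 reads in all, against 202 ± 34.8 CPM for Cox4i1 in the same group.

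Wild type library 1 and deficient library 1 stood apart in the nuclear members as they did in the mitochondrial genes. Wild type library 1 was the highest of the 8 libraries for 43 of 88 nuclear members and deficient library 1 for 27, together 79.5%, against 37.1% of all genes tested. Wild type library 1 reached at least 1.5 times each other wild type library in 21 of the 88, against 9.08% of all genes, and deficient library 1 did so in 2, against 4.53%. Examples were small subunits. Atp5e, the epsilon subunit of ATP synthase, stood at 179 CPM in wild type library 1 and at 63.8 to 69.1 CPM in the other 3. Cox7b stood at 277 CPM there and at 112 to 120 CPM in the others, and Atp5md, a small membrane subunit of ATP synthase, at 88.5 CPM and 30.1 to 37.2 CPM. In the 4 deficient libraries Cox7b stood at 133, 109.8, 129 and 120.5 CPM, all far below wild type library 1. Other genes of at most 1000 bases had a median deviation of 0.38 log2 units in wild type library 1 and 0.14 in deficient library 1. Nuclear members had 0.29 and 0.21, and mitochondrial genes 0.60 and 0.68. Other genes of 1000 to 2000 bases, the range of 36 of the 88 nuclear members, had 0.08 and 0.16. Cox7b, Atp5e and Atp5md are listed with lengths of 1214, 1756 and 2755 bases. All these lengths are those listed per gene, and the lengths of the transcripts in these livers were not determined. Erythroid markers summed to 1440 CPM in wild type library 1 and to 184 to 625 CPM in the other 7, and Kupffer cell markers to 159.8 and 37.0 to 78.8 CPM. In wild type library 1 both the other genes of at most 1000 bases and these markers were high, and their part in the subunit levels was not tested.

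**Figure D5:**
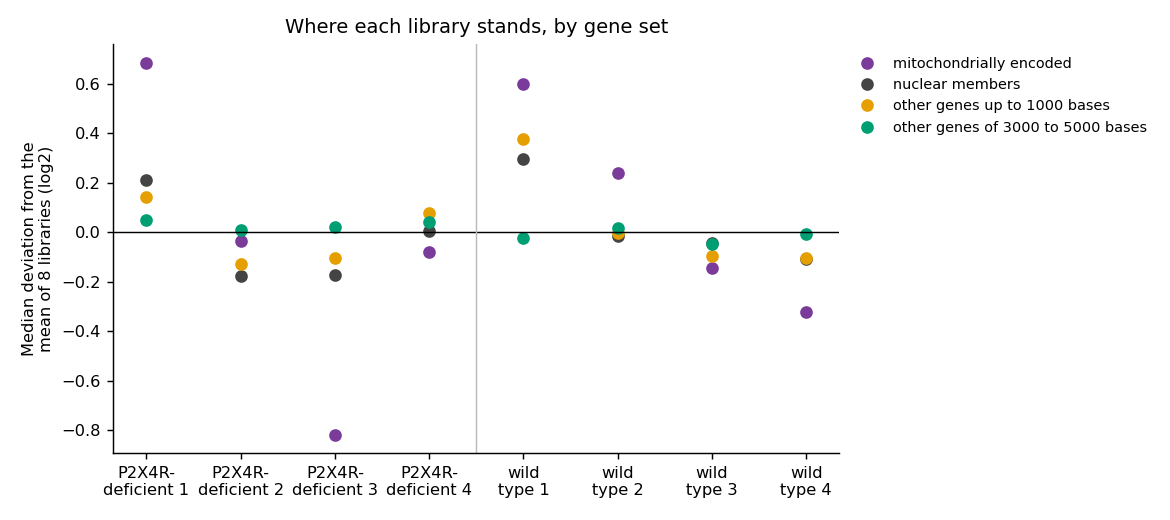
Median deviation from the mean of the 8 libraries (log2 CPM) for mitochondrially encoded genes, nuclear members and other genes of 2 length classes, by library. Mitochondrial genes are highest in deficient library 1 (0.68) and wild type library 1 (0.60) and lowest in deficient library 3 (-0.82), while other genes of 3000 to 5000 bases stay near 0.

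Promoters of the nuclear members were searched for letters of 3 factors long linked to respiratory genes. The windows run from 250 bases before to 50 after the start (RefSeq, GRCm38.p6) and were found for 73 of the 88 tested nuclear members. The NRF1 letters GCGCATGCG occurred in 10 of them (13.7%), against 4.13% of the 9131 tested genes with windows. The YY1 letters AAGATGGCG occurred in 8 (11%), against 3.72%, and the ETS letters CCGGAAG in 19 (26.0%), against 20.4%. Both strands were searched, and on the palindromic stretches of NRF1 letters the matches of the strands overlap. Uqcrc2 was not among the windows found. A pair of windows with NRF1 letters is shown, from the nuclear member with the highest FPKM and from a subunit whose groups did not overlap, with matches in capitals. The Cox6a1 window (chr5:115348909-115349208, minus strand) also holds ETS letters on the reverse strand, and the Uqcrc1 window is chr9:108936398-108936697 on the plus strand.
Cox6a1: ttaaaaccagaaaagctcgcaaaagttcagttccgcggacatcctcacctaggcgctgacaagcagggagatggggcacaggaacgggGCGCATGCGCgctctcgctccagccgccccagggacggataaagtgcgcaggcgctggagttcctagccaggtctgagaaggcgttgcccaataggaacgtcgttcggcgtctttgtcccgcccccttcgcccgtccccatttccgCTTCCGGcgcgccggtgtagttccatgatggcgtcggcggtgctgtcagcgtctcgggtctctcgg
Uqcrc1: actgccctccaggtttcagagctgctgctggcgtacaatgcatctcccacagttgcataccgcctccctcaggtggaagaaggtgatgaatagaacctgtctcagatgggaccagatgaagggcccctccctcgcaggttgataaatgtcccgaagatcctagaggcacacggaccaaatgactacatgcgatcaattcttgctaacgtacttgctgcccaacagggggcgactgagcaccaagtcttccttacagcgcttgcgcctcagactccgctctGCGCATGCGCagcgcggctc
Cox6a1 stood at 320 ± 17.6 CPM in deficient livers and 319.8 ± 4.08 CPM in wild type livers, a log2 fold change of 0.00 with an interval of -0.29 to 0.29. Uqcrc1 stood at 206, 225, 253 and 213 CPM and at 257, 257, 298.5 and 258.5 CPM (log2 fold change -0.26, adjusted p = 0.233).

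Genes that build, feed or regulate the chain were looked at as lists. Of the 120 tested genes on these lists that are no members, 11 were higher and 6 lower, against 9.27% and 10.6% of all genes, and their median log2 fold change was 0.06. Complex I assembly had 2 of 17 higher and 0 lower, Tmem186 (log2 fold change 1.30, adjusted p = 0.00833) and Tmem126b (0.79, 0.0326). Complex IV assembly had 2 of 21 higher and 0 lower. Coa4 stood at 4.53, 2.30, 3.53 and 5.92 CPM in deficient livers and 1.08, 0.492, 0.330 and 0.833 CPM in wild type livers (2.56, 0.00533). Tmem177 had a log2 fold change of 1.18 (0.0206) and acts in the maturation of subunit 2. In complex III assembly, 1 of 6 was lower and 0 higher. It was Bcs1l (-0.89, 0.031), the protein that inserts the Rieske iron-sulfur subunit, the same complex whose core protein Uqcrc2 was lower. Lists for assembly of complexes II and V (3 and 4 tested) had 0 called.

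Genes for transcription and replication of mitochondrial DNA had 2 of 14 higher and 0 lower, against 9.27% and 10.6% of all genes tested, with a median of 0.52. They were Tfb1m (1.01, adjusted p = 0.043), a methyltransferase of the mitochondrial ribosome's RNA, and Mterf4 (0.93, 0.0259), which acts in mitochondrial ribosome assembly. Tfam, which packages mitochondrial DNA, had a log2 fold change of 0.27 (adjusted p = 0.228), and the polymerase Polrmt of 0.34 (0.338). The list of mitochondrial RNA processing had 2 of 18 higher and 0 lower, Fastk (0.94, 0.00902), known to act on the transcript of mt-Nd6, and Fastkd5 (1.43, 0.0272), which acts in cutting precursors that lack a transfer RNA between genes. The mt-Nd6 level itself was 205 ± 107 CPM in deficient livers and 222 ± 53.9 CPM in wild type livers (log2 fold change -0.12, adjusted p = 0.834). Of the electron carriers, 2 of 15 were higher and 1 lower, all genes of ubiquinone synthesis: Coq8b (0.66, 0.0172), Coq3 (0.89, 0.0116) and Coq8a (-1.68, 0.0412). Coq8a was low in deficient libraries 1 and 3 (6.09 and 6.31 CPM) and stood at 25.3 and 25.1 CPM in the other 2, against 70.6, 18.3, 72.3 and 40.2 CPM in wild type livers, and the groups overlapped.

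Among transcriptional regulators of the chain, 1 of 11 was higher and 1 lower, close to the 9.27% and 10.6% of all genes tested. Esrra, a nuclear receptor that acts on respiratory genes, stood at 14.6, 6.21, 14.9 and 14.1 CPM in deficient livers and at 7.28, 7.80, 7.19 and 5.90 CPM in wild type livers (0.82, adjusted p = 0.0451). Its relative Esrrg stood at 0.00, 0.186, 0.116 and 0.402 CPM and at 3.23, 0.703, 3.89 and 1.15 CPM (-3.61, 0.0104). The coactivator gene Ppargc1a did not pass (adjusted p = 0.0705). In the citric acid cycle, which supplies NADH and succinate, 0 of 14 were higher and 3 lower: Idh3b (-0.52, 0.0367), Suclg2 (-0.58, 0.0275) and Suclg1 (-0.48, adjusted p 0.05 after rounding, just under the threshold). Suclg1 and Suclg2 encode subunits of the enzyme that makes succinate. The uncoupling and carrier list had 0 of 5 called. Of the calls named on these lists, those of Tmem186, Coa4, Coq3, Fastk and Esrrg held under every alternative in which the gene was tested, and each of the others was lost when some library was left out.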

How the data were processed

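RNA of 8 liver samples was sequenced after selection with poly-T beads, per the labels' protocols. The deposited table holds, per the file headers, raw read counts and FPKM values per gene for every library. FPKM recomputed from the deposited counts and gene lengths came within 6.96e-05% of the authors' values. The submitters' processing notes name cutadapt and HISAT2 2.0.5. The annotation release, the counting program, its use of strand and its handling of reads with several positions are not stated by the sources used here, so overlapping genes cannot be told apart.

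Counts were tested with edgeR 4.0.16 (R 4.3.3) by its quasi-likelihood test with TMM scaling and its default expression filter, over the whole table, with Benjamini-Hochberg adjustment and a threshold of 0.05. Of the 110 members, 100 passed the filter. The other 10 (mt-Atp8, Ndufb2, Ndufb11b, Cox4i2, Cox6a2, Cox6b2, Cox7b2, Cox8b, Cox8c and a second Atp5o row) had too few reads. Intervals are 95% intervals of the fit. The script was tested on simulated data. Alternatives were DESeq2 1.42.0, limma 3.58.1 on log2(FPKM + 1) and log2(FPKM + 0.1), scaling by library size alone or without chromosome MT, robust estimation, a block for the replicate number, no expression filter or one of 1 CPM in 4 libraries, and leaving out each library. Leaving out both libraries 1 was added after seeing the data.

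The members, lists and tests were chosen with earlier results of these data known. Genes named were P2rx4, all mitochondrial genes, in each complex up to 4 nuclear members called and the 2 with the highest FPKM, isoform genes, and up to 3 called members of each pathway list. Other genes named were chosen after their values were seen. Floors cover counting error only. The values of 1 member are not reported here.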

Additional observations from a re-analysis of the deposited data

Results flagged for a closer look

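In groups of 4 libraries, a value was singled out where the gap from the highest or lowest library to its nearest neighbour exceeded Dixon's 95% critical value of the whole range. Chance alone flags about 1 in 20 groups. 17 of 178 groups were singled out, 11 of them through wild type library 1, and these groups share libraries.

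Wild type library 1 was high in 9 small or accessory subunits. It stood at 145 CPM for Uqcr10 (65.6 to 73.9 in the other 3 wild type libraries), at 409 for Uqcrq (216 to 233), at 156 for Cox7a2 (76.7 to 85.3) and at 277 for Cox7b (112 to 120). It stood at 179 CPM for Atp5e (63.8 to 69.1), at 88.5 for Atp5md (30.1 to 37.2), at 98.5 for Atp5mpl (42.8 to 48.8), at 98.8 for Ndufa7 (45.5 to 52.4) and at 40.2 for Ndufb6 (20.2 to 22.0). For Atp5g2 it was instead the lowest at 48.5 CPM (52.4 to 53.1).

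Wild type library 3 was the highest in the summed level of complex II, 895 CPM (728 to 753), and in Uqcrc1, 298.5 CPM (257 to 258.5). Deficient library 1 was the highest of its group for Atp5g2 at 59.4 CPM (44.8 to 46.2) and the lowest for Suclg1 at 79.9 CPM (101 to 104). Deficient library 2 was the lowest for Esrra at 6.21 CPM (14.1 to 14.9). Among regulators, deficient library 1 was the highest of its group for Tfam at 27.4 CPM (20.1 to 21.1), and wild type library 1 for Ppargc1a at 7.72 CPM (5.26 to 5.67).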

How the results depend on the processing

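The number of all genes called was 2264 and lay between 982 and 2388 with each library left out in turn, the lowest without wild type library 3, and at 1449 without both libraries 1. Mitochondrial genes called stayed at 0 in both directions under every alternative listed. Nuclear genes called higher numbered 1 with library size alone, with limma on log2(FPKM + 1) (both Ndufaf8) and with no filter (Cox4i2), and 0 to 1 with a library left out. Nuclear genes called lower numbered 2 in DESeq2, 0 with library size alone, with limma on log2(FPKM + 0.1), with no filter and without both libraries 1 (Uqcrc2 adjusted p = 0.0756), and 0 to 1 with a library left out; the cause was not tested. The median log2 fold change of nuclear genes ran from -0.19 to 0.06 and that of mitochondrial genes from -0.43 to 0.08 over all alternatives. With the replicate number as a block, edgeR called 1768 genes in all and 0 nuclear members (Uqcrc2 adjusted p = 0.0665). Over the genes tested, same-numbered libraries showed little common deviation (correlations 0.12, -0.13, 0.08 and -0.14). With 4 libraries a group this does not decide whether the numbers pair them. P2rx4 kept its direction and passed under all alternatives, with log2 fold changes of -1.29 to -0.87. 19 of the 70 other named and tested genes passed; none changed sign, 5 passed under every alternative and 14 were lost under at least 1. Of the 51 that did not pass, 31 changed sign under an alternative and 3 passed under an alternative, so the values given for these 51 describe the libraries and are not calls. Genes under the filter, such as mt-Atp8 and Ndufb2, cannot be compared at this depth.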
